A study of Mus musculus with 2 samples.

Results

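The 34 genes described here belong to the amino-acid response that the transcription factor ATF4 controls, together with cytosolic tRNA synthetases, in mouse brain tumours with mutant IDH1. They comprise 9 regulators, 9 enzymes of amino-acid synthesis and folate metabolism, 4 amino-acid transporters and 12 tRNA synthetases, out of 31053 genes in the count matrices. The genes were chosen by measured values of these same cells, since earlier results of these data were known when the set was put together, so their shared pattern is described and the choice itself is not evidence for it. All 34 were measured; Mars1, the methionyl-tRNA synthetase gene, is listed in the matrices under its older symbol Mars.

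Single-cell RNA was captured by 10x Genomics droplets from brain tumours of a genetically engineered glioma model on the C57BL/6 strain, at the symptomatic stage. All cells come from 2 libraries, replicates 1 and 2, which form 1 group with mutant IDH1. The labels name no other allele or agent and do not say whether the libraries come from separate animals, so they may differ only technically, and tumours with wild-type IDH1 were not analysed here. Mutant IDH1 is an enzyme variant that makes 2-hydroxyglutarate, a metabolite known for its effect on DNA and histone methylation.

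ATF4 is a transcription factor whose mRNA is translated best when the initiation factor eIF2 is phosphorylated. The kinases that do this respond to uncharged tRNA, to unfolded protein in the endoplasmic reticulum, to double-stranded RNA or to lack of heme. Through a DNA element that it binds with partners of the C/EBP family, ATF4 raises genes for making and importing amino acids and for loading them onto tRNA, and also the feedback regulators Trib3, Chac1, Ddit3 and Ppp1r15a.

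Barcodes under 200 genes or over 15% mitochondrial UMIs were dropped, which left 1740 of 2704 barcodes in replicate 1 and 1446 of 2266 in replicate 2. A UMI is a molecular tag, so a count is of RNA molecules, and CPM is the count of a gene per 1000000 UMIs of a class in a library. Tumour cells were those with Nras at 1000 CPM or more, 1080 and 901 cells with a median of 41914 and 47352 UMIs. Host cells had less Nras and were gated on 5 C1qa UMIs for macrophages or microglia (237 and 217 cells), on 1 Ly6c2 and 5 Lyz2 UMIs for monocytes (34 and 38), on 1 Mcpt8 UMI for basophils (76 and 66) and on 1 Cd3e UMI for T cells (28 and 31). Of the glioma markers that took no part in the gates, Nes stood at 109 and 111 CPM and Sox2 at 18.5 and 16.7 CPM in tumour cells, and Sox2 had no counts in macrophages or microglia, monocytes or T cells. The pan-immune gene Ptprc stood at 0.550 and 0.319 CPM in tumour cells and at 65.0 CPM or more in every host sum. In bulk sums of this kind, fewer cells with a gene and less RNA of it per cell cannot be told apart. The 34 genes took no part in the gates. Tumour cells just inside the Nras limit, between 1000 and 1100 CPM, held Asns at 420 and 360 CPM, and barcodes just outside it, between 900 and 1000 CPM, at 334 and 283 CPM.

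Some host gates held other RNA, which bears on every comparison below. Barcodes with 1 to 4 Mcpt8 UMIs, 24 and 28 of the basophil gate, carried the glioma marker Nes at 128 and 89.3 CPM and Asns at 187 and 196 CPM. Barcodes with 5 or more Mcpt8 UMIs, 52 and 38, carried Nes at 4.41 and 0 CPM and Asns at 4.41 and 6.45 CPM. Counts of members called against basophils, and the results of some genes, are therefore given for the gate as stated and for a stricter gate. The stricter gate of 5 or more Mcpt8 UMIs was added after the data were seen. All other basophil values use the gate as stated. The glioma markers Sox2, Nes, Tnc, Nras and Cdkn2a summed to 3296 and 3748 CPM in tumour cells and 557 and 554 CPM in the basophil gate. The sums were lower in the other host classes. They were 95.3 and 76.6 CPM in macrophages or microglia, 81.4 and 145 in monocytes and 62.8 and 53.5 in T cells. Nras set the tumour gate, so the higher sum in tumour cells was largely fixed by the gate. The part of tumour RNA in the member levels of the host classes was not tested. In the monocyte gate the neutrophil markers S100a8, S100a9, Csf3r and Retnlg summed to 37472 and 19385 CPM, beside 38627 and 35648 CPM for the monocyte markers. Of the 454 macrophages or microglia, 124 lacked any Malat1 UMI. The libraries share 10 barcodes, and leaving these out changed no member count.

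The promoters were read for the ATF4 element because the members moved together over tumour cells. The letters searched were TGATGNAA, or TTNCATCA on the other strand, where N is any base, in RefSeq windows from 250 bases before to 50 after each gene's start (GRCm38.p6). No other motif was searched. Of all 27025 genes with such a window, 4.51% held the letters. RefSeq windows were matched for 26 members, of which 9 held them, or 34.6%: the regulators Atf3, Chac1 and Trib3, the enzyme Asns, and the synthetases Aars, Gars, Iars, Tars and Yars. The members were listed as genes of the ATF4 response, so their larger share is not separate evidence of it. A match is a description of the letters and not a measured binding site. The 6 members with a match and the highest mean correlation to the other members are printed below up to 30 bases after the start, with the match in capitals. The printed window of Asns lies at chr6:7693180-7693459 on the minus strand, that of Gars at chr6:55037751-55038030 on the plus strand and that of Trib3 at chr2:152344031-152344310 on the minus strand. The window of Chac1 lies at chr2:119350992-119351271 on the plus strand, that of Tars at chr15:11399629-11399908 on the minus strand and that of Aars at chr8:111033592-111033871 on the plus strand.
Asns: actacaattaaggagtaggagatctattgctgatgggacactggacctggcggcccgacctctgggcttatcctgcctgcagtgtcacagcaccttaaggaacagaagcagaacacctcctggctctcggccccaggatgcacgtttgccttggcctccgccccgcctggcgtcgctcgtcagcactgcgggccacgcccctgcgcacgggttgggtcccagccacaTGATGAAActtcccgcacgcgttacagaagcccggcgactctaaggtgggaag
Gars: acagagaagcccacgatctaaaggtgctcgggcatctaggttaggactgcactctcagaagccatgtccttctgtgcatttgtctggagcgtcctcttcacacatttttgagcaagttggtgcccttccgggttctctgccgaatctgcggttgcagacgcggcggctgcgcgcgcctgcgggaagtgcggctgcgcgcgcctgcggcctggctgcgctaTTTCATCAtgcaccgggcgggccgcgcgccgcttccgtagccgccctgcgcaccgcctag
Trib3: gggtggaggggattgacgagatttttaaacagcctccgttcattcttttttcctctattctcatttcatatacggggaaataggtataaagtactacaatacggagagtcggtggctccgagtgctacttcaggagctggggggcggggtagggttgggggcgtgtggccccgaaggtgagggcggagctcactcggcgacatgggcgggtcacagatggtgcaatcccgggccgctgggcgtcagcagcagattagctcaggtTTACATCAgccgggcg
Chac1: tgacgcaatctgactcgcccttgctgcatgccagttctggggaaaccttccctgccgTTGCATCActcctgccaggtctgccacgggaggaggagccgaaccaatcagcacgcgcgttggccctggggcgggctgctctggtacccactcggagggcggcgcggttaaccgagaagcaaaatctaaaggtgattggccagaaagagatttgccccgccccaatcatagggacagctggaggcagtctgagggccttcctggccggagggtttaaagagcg
Tars: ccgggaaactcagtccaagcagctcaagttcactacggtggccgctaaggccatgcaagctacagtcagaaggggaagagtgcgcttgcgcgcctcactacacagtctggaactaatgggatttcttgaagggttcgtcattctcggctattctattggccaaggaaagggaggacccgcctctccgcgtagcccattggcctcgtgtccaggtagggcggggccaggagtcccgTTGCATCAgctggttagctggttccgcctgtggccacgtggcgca
Aars: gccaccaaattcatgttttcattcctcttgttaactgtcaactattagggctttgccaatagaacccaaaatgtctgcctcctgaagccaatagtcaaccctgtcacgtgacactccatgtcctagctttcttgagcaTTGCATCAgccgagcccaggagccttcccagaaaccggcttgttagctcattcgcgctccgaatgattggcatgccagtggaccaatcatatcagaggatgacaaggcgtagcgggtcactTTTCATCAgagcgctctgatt
The match in Asns begins 23 bases before the start, that in Gars 30 bases before it and that in Tars 15 bases before it. Chac1 holds its match farther out, 193 bases before the start, and Trib3 holds it 14 bases after the start. Aars has 2 matches, the first 112 bases before the start. The windows of Psph and Mthfd2, whose mean correlation to the other members was higher than that of all 6, do not contain these letters, nor do those of Phgdh, Eprs, Sars or Atf4. No RefSeq window was matched for Slc7a5, Slc1a5, Rars, Wars, Cth, Aldh1l2, Nars and Lars.

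Most of the 34 genes were higher in tumour cells than in host cells, across enzymes, synthetases and ATF4 itself. Of those tested, Atf3, Cebpb, Ppp1r15a, Slc3a2 and Slc38a2 were not called higher. Slc38a2 and Ppp1r15a missed only the fold limit of 1, with log2 folds of 0.66 and 0.57 (edgeR adjusted p = 3.3e-06 and 0.00096). Counts were summed per class and library and fitted with edgeR's quasi-likelihood test, and a gene was called at a Benjamini-Hochberg adjusted p under 0.05 and a fold of at least 1 on the log2 scale. Against the 4 host classes averaged on the log2 scale, 27 of the 32 members that passed the filter on low counts were called higher and 0 lower. Over all 7327 genes tested, 24.5% were called higher and 17.0% lower, 1796 and 1244 genes. At an unadjusted p under 0.05, edgeR put 29 members higher and 1 lower. The share of all genes at that unadjusted p was not counted, here or for the lists below. DESeq2 called 27 members higher and 0 lower, with 1597 genes higher and 1749 lower over all genes. Leaving basophils out of the host mean gave 28 members higher and 0 lower, with 1902 and 1344 of all 7327 genes. The stricter basophil gate gave 27 and 0, with 1766 and 1233 of all 6458 genes. The members' median log2 fold was 2.10, beside 0.18 over all genes, and 2.09 with host classes without counts set at 3 counts per class. Trib3, Chac1 and Aldh1l2 passed the filter only through the tumour sums, so their direction was fixed by it, here and in the counts below. Sesn2 and Cbs did not pass it. Without the filter 28 of 34 were called higher, with 4089 of all 19037 genes. In CPM, 27 of the 33 members that reached 20 CPM in any class lay above all host sums in both libraries, against 24.1% of 8769 genes at that level, and 0 lay below all of them, against 11.9%. Next highest after tumour cells was the basophil gate for 24 of the 28 members that lay above all host sums, Cbs included. That order used the basophil gate as stated and was not taken for the stricter one.

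**Figure D1:**
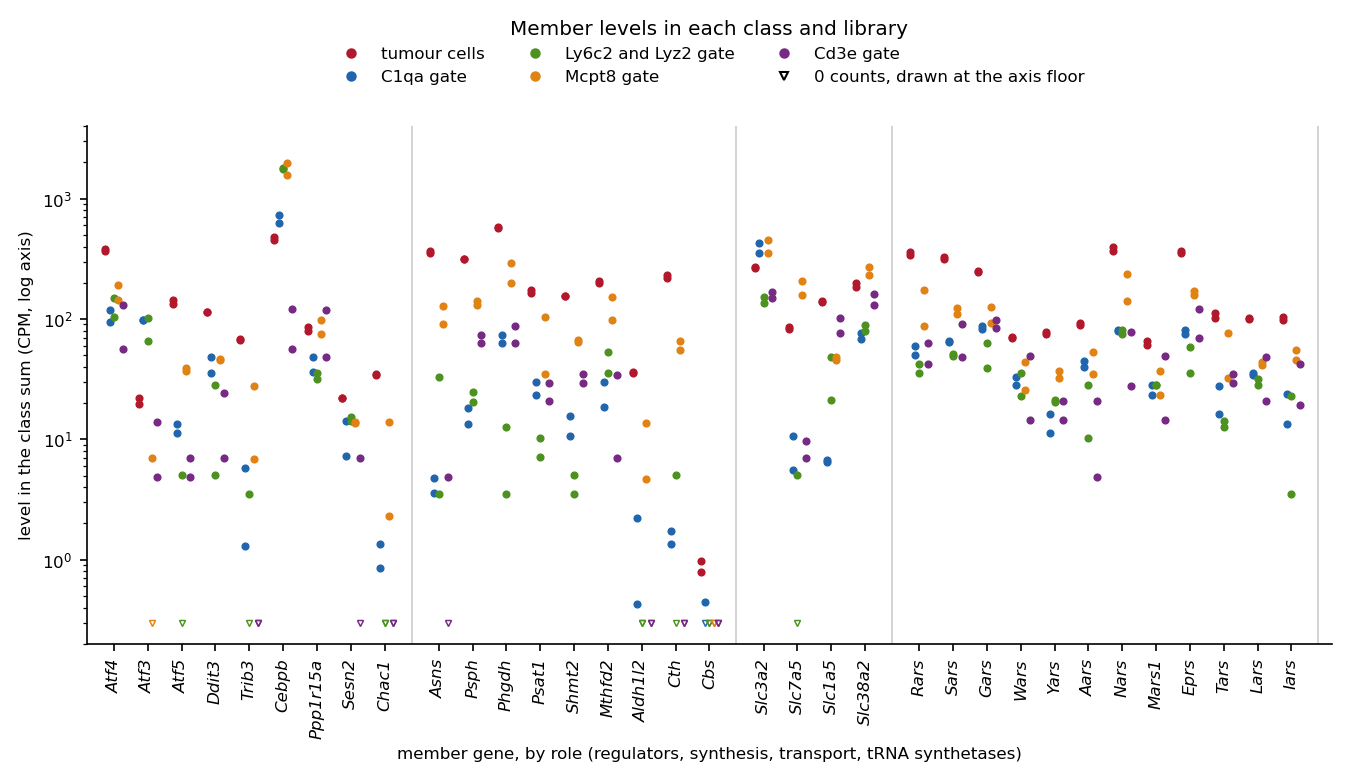
Level of each of the 34 genes in CPM (log axis) in the summed cells of each class, with 1 point for each library; open triangles mark sums with 0 counts. The red tumour points lie above the host points for 28 genes, and Atf3, Cebpb, Ppp1r15a, Slc3a2, Slc7a5 and Slc38a2 are the others.

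The regulators were split. Of the 8 tested, Atf4, Atf5, Ddit3, Trib3 and Chac1 were called higher and Atf3, Cebpb and Ppp1r15a were not called. The direction of Trib3 and Chac1 was fixed by the filter. Chac1, which degrades glutathione (chr2:119351229-119354381, plus strand, GRCm38), stood at 34.5 and 35.1 CPM in tumour cells, at 1.34 and 0.860 in macrophages or microglia, at 13.9 and 2.30 in the basophil gate and at 0 in all monocyte and T cell sums. Taking 3 counts per class as the floor, it was at least 7.84-fold higher than in monocytes and at least 4.05-fold higher than in T cells. Trib3, a pseudokinase that restrains ATF4, stood at 67.0 and 68.5 CPM in tumour cells, at 5.82 and 1.29 in macrophages or microglia, at 3.54 and 0 in monocytes, at 27.9 and 6.90 in the basophil gate and at 0 in T cells, so it was at least 7.87-fold higher in tumour cells than there. The tumour values of both genes differed little between libraries, whereas the host sums rest on few counts: the log2 difference from the host mean was 5.21 in replicate 1 and 6.02 in replicate 2 for Chac1, and 4.33 and 6.48 for Trib3.

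Atf4 itself (chr15:80255184-80257541, plus strand, GRCm38) stood at 367 and 384 CPM in tumour cells, against 119 and 94.6 in macrophages or microglia, 149 and 104 in monocytes, 190 and 145 in the basophil gate and 55.8 and 131 in T cells. The groups did not overlap, and the log2 fold against the host mean was 1.63 (SE 0.11; edgeR adjusted p = 5.0e-11). Atf5, a related factor, had a log2 fold of 3.88 (SE 0.19; 4.71 in replicate 1 and 3.80 in replicate 2), and Ddit3, the factor also called CHOP, one of 2.10 (SE 0.18). RNA levels of Atf4 do not show how much of it is translated.

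Cebpb, which encodes a C/EBP factor that pairs with ATF4 and also acts in myeloid cells, had the lowest fold among the regulators. It stood at 455 and 476 CPM in tumour cells, 735 and 629 in macrophages or microglia, 1805 and 1747 in monocytes, 1988 and 1586 in the basophil gate and 55.8 and 122 in T cells. Tumour cells thus lay between the T cells and the myeloid classes: the gene was called lower against monocytes (log2 fold -1.98, SE 0.19) and basophils (-1.95, SE 0.19) and higher against T cells (2.43, SE 0.28). With the stricter basophil gate the fold against basophils was -2.83 (SE 0.20). Atf3, a stress-induced repressor, stood at 19.8 and 22.1 CPM in tumour cells and at 98.4 and 97.2 in macrophages or microglia, which were higher (tumour log2 fold -2.28, SE 0.14). It was also called lower against monocytes, at 103 and 66.2 CPM (-2.02, SE 0.28), but higher against the basophil gate, at 6.97 and 0 CPM (2.59, SE 0.68), and T cells held 14.0 and 4.86 CPM. Atf3 had a log2 fold of 2.75 (SE 1.09) against basophils of the stricter gate. Its log2 difference from the host mean was -0.68 in replicate 1 and 1.33 in replicate 2. Ppp1r15a, the subunit that directs a phosphatase to eIF2, stood at 79.8 and 85.2 CPM in tumour cells, within the host range of 31.9 to 119. Sesn2, a leucine sensor, stood at 22.1 and 21.99 CPM in tumour cells and at 15.3 or less in the host sums, and was too low for the test.

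All 8 tested enzymes of synthesis and folate metabolism were called higher against the host mean, with a median log2 fold of 3.19. The smallest was 2.27 (Mthfd2). The largest fitted value was that of Aldh1l2, whose size depends on host classes at 0 counts and whose direction was fixed by the filter. Asns, asparagine synthetase (chr6:7675169-7693254, minus strand), stood at 352 and 368 CPM in tumour cells, at 3.58 and 4.73 in macrophages or microglia, at 3.54 and 33.1 in monocytes, at 90.6 and 129 in the basophil gate and at 0 and 4.86 in T cells. The tumour sums lay above all host sums, the basophil gate being nearest, and with the stricter Mcpt8 gate the basophil level was 4.41 and 6.45 CPM. Its log2 fold against the host mean was 4.82 (SE 0.17; edgeR adjusted p = 2.9e-18), and the difference was 6.46 in replicate 1 and 4.36 in replicate 2, where monocytes and T cells held more of it.

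Cth, which makes cysteine from cystathionine (chr3:157894248-157925077, minus strand), stood at 220.2 and 231 CPM in tumour cells, 1.34 and 1.72 in macrophages or microglia, 0 and 5.09 in monocytes, 65.0 and 55.2 in the basophil gate and 0 in both T cell sums. It was at least 26.2-fold higher than in T cells and was at 4.41 and 0 CPM in the stricter basophil gate. Its log2 difference from the host mean was 7.33 in replicate 1 and 6.17 in replicate 2. Aldh1l2, a mitochondrial folate enzyme, was lower in level, at 35.6 and 36.0 CPM in tumour cells and 2.24 and 0.430 in macrophages or microglia. It had no counts in monocytes or T cells and 4.65 and 13.8 CPM in the basophil gate, so it was at least 8.05-fold higher than in monocytes and at least 4.16-fold higher than in T cells (log2 difference from the host mean 5.48 in replicate 1 and 5.62 in replicate 2).

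The genes of serine synthesis, which feeds the folate cycle, were all called higher. Phgdh, its first enzyme, stood at 584 and 568 CPM in tumour cells, 72.9 and 63.2 in macrophages or microglia, 3.54 and 12.7 in monocytes, 197 and 290 in the basophil gate and 62.8 and 87.5 in T cells (log2 fold 3.32, SE 0.15). Psat1 and Psph, which complete serine, had log2 folds of 2.75 (SE 0.17) and 2.89 (SE 0.12). Mitochondrial Shmt2, which splits serine, had one of 3.06 (SE 0.16), and Mthfd2, the folate dehydrogenase after it, had the smallest of the group, 2.27 (SE 0.16), with 199.6 and 207 CPM in tumour cells, 29.98 and 18.5 in macrophages or microglia, 35.4 and 53.5 in monocytes, 153 and 98.9 in the basophil gate and 6.98 and 34.0 in T cells. Cbs, the enzyme before Cth, was at 0.796 and 0.977 CPM in tumour cells and had no counts in monocytes, basophils or T cells, so no fold is given.

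Of the transporters, Slc7a5 and Slc1a5 were called higher against the host mean, and Slc3a2 and Slc38a2 were not. Slc7a5, the large neutral amino-acid carrier (chr8:121881150-121907694, minus strand), stood at 82.5 and 86.0 CPM in tumour cells, 10.7 and 5.59 in macrophages or microglia, 0 and 5.09 in monocytes and 6.98 and 9.73 in T cells, but at 207 and 159 in the basophil gate. Basophils thus had the highest level, and the gene was called lower in tumour cells than in them (log2 fold -1.12, SE 0.17), also with the stricter gate (-1.95, SE 0.20). Its log2 fold against the host mean was 2.59 (SE 0.23; 3.49 in replicate 1 and 2.55 in replicate 2).

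Slc3a2 encodes the heavy chain that Slc7a5 needs at the membrane and had the smallest fold of the group, 0.14 (SE 0.13). It stood at 266 and 273 CPM in tumour cells, 428 and 355 in macrophages or microglia, 152 and 135 in monocytes, 455 and 356 in the basophil gate and 168 and 151 in T cells. Tumour cells were in the middle of the host classes. Slc1a5, which carries glutamine and other neutral amino acids, stood at 139 and 142 CPM in tumour cells and at 6.71 and 6.45 in macrophages or microglia, 21.2 and 48.4 in monocytes, 48.8 and 46.0 in the basophil gate and 76.8 and 102 in T cells. T cells were nearest and gave no call (0.74, SE 0.27), and the log2 fold against the host mean was 2.14 (SE 0.13). Slc38a2, another glutamine carrier, had a log2 fold of 0.66 (SE 0.11) and was called higher against macrophages or microglia (1.35, SE 0.12) and monocytes (1.15, SE 0.20).

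All 12 tRNA synthetases of the set were called higher against the host mean, in a narrower range of log2 folds than the enzymes, from 1.16 (Mars1) to 2.52 (Rars). Rars, the arginyl enzyme (chr11:35808381-35834506, minus strand), stood at 343 and 362 CPM in tumour cells, 50.6 and 59.4 in macrophages or microglia, 42.5 and 35.7 in monocytes, 88.3 and 175 in the basophil gate and 41.9 and 63.2 in T cells. Mars1 stood at 60.3 and 65.3 CPM in tumour cells, 28.2 and 23.2 in macrophages or microglia, 28.3 and 28.0 in monocytes, 23.2 and 36.8 in the basophil gate and 48.9 and 14.6 in T cells. Neither gene's tumour values overlapped the host values, and the SE was 0.12 for Rars and 0.17 for Mars1. Sars, Nars, Eprs, Tars and Iars, for serine, asparagine, glutamate with proline, threonine and isoleucine, had log2 folds of 2.17, 2.10, 2.03, 2.02 and 2.01. Yars, Aars, Gars, Lars and Wars, for tyrosine, alanine, glycine, leucine and tryptophan, had 1.92, 1.87, 1.60, 1.501 and 1.20. Only Tars and Iars missed a call against the basophil gate, and all 12 were called against each of the other classes. With the stricter basophil gate Tars and Iars were called (2.52, SE 0.49, and 4.02, SE 0.74) and Wars was not (0.60, SE 0.40).

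Against single host classes the counts were similar apart from basophils. Against macrophages or microglia 28 members were called higher and 1 lower, where 26.3% of all genes were higher and 26.4% lower. Against monocytes it was 29 and 2, where all genes gave 27.4% and 25.3%, and against T cells 27 and 0, where they gave 23.0% and 16.7%. Against the basophil gate 24 members were higher and 2, Cebpb and Slc7a5, were lower, where all genes gave 15.2% and 17.5%. With the stricter gate 26 were higher and 4 lower, Slc3a2 and Slc38a2 being the others, where 28.4% and 23.9% of 6458 genes were called. The members' median log2 fold against basophils was 1.20 with the gate as stated and 2.57 with the stricter one. DESeq2 called 19 members higher and 2 lower against the basophil gate, with 699 genes higher and 1416 lower, beside 1113 and 1285 with edgeR. Against T cells it called 26 and 0, with 1313 genes higher and 1468 lower, beside 1685 and 1223. These comparisons share the tumour sums.

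**Figure D2:**
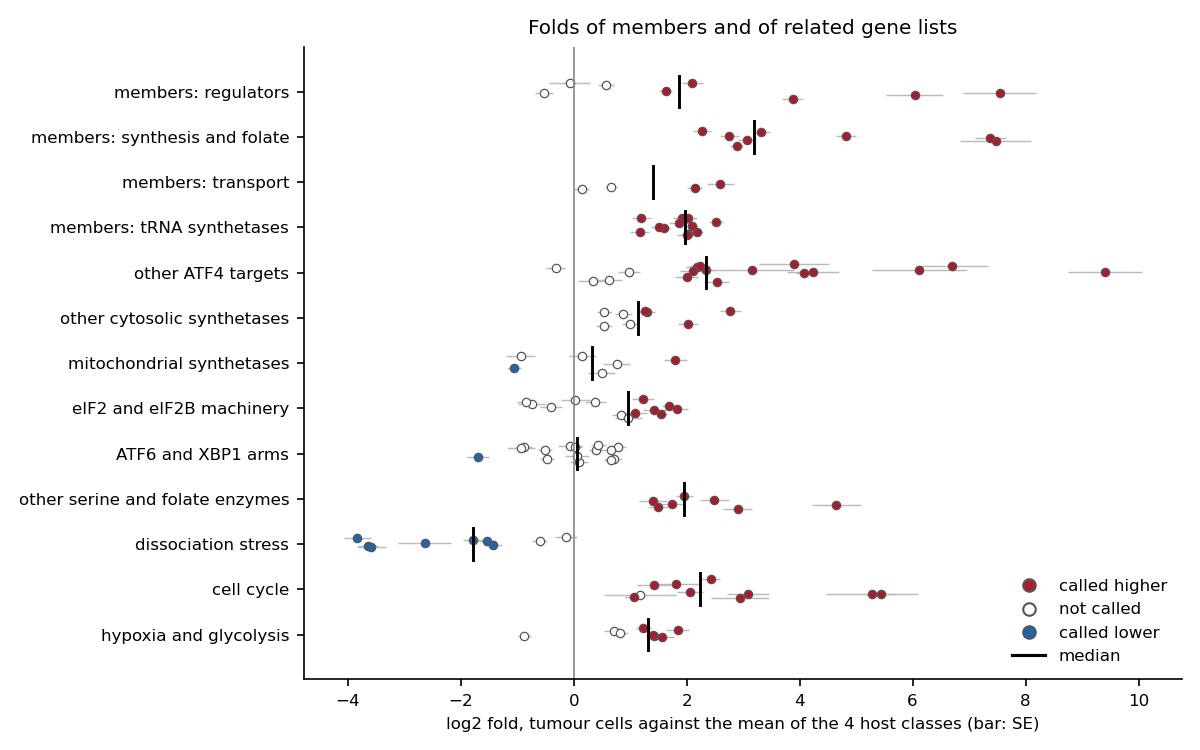
Log2 fold of tumour cells against the mean of the 4 host classes from edgeR for each tested gene (point, bar for the SE), for the members by role and for other gene lists; black ticks are medians. Synthesis enzymes (median 3.19) and tRNA synthetases (1.96) lie to the right of the line at 0 throughout, and folds above about 6 belong to genes with host classes at 0 counts, whose size depends on the prior count.

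Listed targets of ATF4 outside the set were mostly higher too. Of 22 such genes 17 were tested, and edgeR called 13 higher and 0 lower, with a median log2 fold of 2.34; at an unadjusted p under 0.05 it was 15 and 0, and DESeq2 called 12 and 0. Of the 13, Gpt2, Vldlr, Pycr1 and Aldh18a1 passed the filter only through the tumour sums, so they had to be higher. The gene with the largest fold, Vldlr, a lipoprotein receptor, stood at 41.1 and 44.1 CPM in tumour cells, 13.9 and 6.90 in the basophil gate and 0 in the other classes, which makes it at least 64.7-fold higher than in macrophages or microglia. Pycr1, the last enzyme of proline synthesis, was at 26.5 and 28.9 CPM and had no counts in macrophages or microglia (at least 42.1-fold). Vegfa, the vascular growth factor, stood at 84.3 and 93.1 CPM, beside 83.6 and 64.4 in the basophil gate. Slc6a9, a glycine carrier, was called higher against the host mean although the basophil gate held more of it, 44.1 and 59.8 against 19.1 and 21.9 CPM in tumour cells; it was at 0 in monocytes and T cells.

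The cytosolic tRNA synthetases outside the set differed less. Of the 8 tested, edgeR and DESeq2 each called 4 higher and 0 lower, and 8 were higher at edgeR's unadjusted p under 0.05, with a median log2 fold of 1.13: Cars 2.77 (SE 0.19), Farsb 2.02 (SE 0.18), Hars 1.29 (SE 0.15) and Vars 1.26 (SE 0.13), for cysteine, phenylalanine, histidine and valine. Dars, Farsa, Kars and Qars had log2 folds from 0.53 (Qars) to 0.9996 (Kars), under the limit of 1. Since the 12 of the set were chosen with these data known, the contrast between the groups of synthetases was not tested. Of 17 mitochondrial synthetases only 6 passed the filter, with 1 higher (Yars2, 1.80, SE 0.20), 1 lower (Lars2, -1.05, SE 0.12) and a median of 0.32.

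Genes listed under the ATF6 and XBP1 arms of the unfolded protein response were near the host level. Of 15 tested, edgeR called 0 higher and 1 lower, with a median log2 fold of 0.06. At an unadjusted p under 0.05 there were 6 higher and 5 lower, all but 1 at folds under the limit of 1, and DESeq2 called 0 higher and 2 lower. The lower gene was Edem1 (-1.70, SE 0.20), which helps to clear misfolded glycoproteins. The chaperone Hspa5 stood at 484 and 482 CPM in tumour cells and 583 and 515 in macrophages or microglia, with a log2 fold of 0.39 (SE 0.12) against the host mean. Of 13 genes for eIF2, its exchange factor eIF2B, the kinases and other regulators such as Gcn1l1, Impact and Ppp1r15b, edgeR called 6 higher and 0 lower (9 and 3 at an unadjusted p under 0.05; DESeq2 5 and 0), led by Eif2b3 (1.83, SE 0.19), Eif2s2 (1.69, SE 0.12), Eif2s1 (1.54, SE 0.11) and Eif2b5 (1.43, SE 0.20). Eif2b3 and Eif2b5 passed the filter only through the tumour sums. Of the kinase genes, Eif2ak1 and Eif2ak2 had log2 folds of -0.75 (SE 0.25) and -0.85 (SE 0.15) and were not called. Eif2ak3 and Eif2ak4 did not pass the filter.

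The 7 tested genes of serine and folate metabolism outside the set were called higher (median log2 fold 1.95), but 5 of them passed the filter only through the tumour sums, so the count says little. They include Shmt1, at 39.2 and 38.2 CPM in tumour cells, 23.2 and 9.20 in the basophil gate and 0 in monocytes, Mthfd1l (2.90, SE 0.26) and Gcsh (1.95, SE 0.15). Immediate-early genes that rise when tissue is dissociated went the other way, with 7 of 9 called lower in tumour cells and a median of -1.78: Dusp1 (-3.83, SE 0.24), Fos (-3.65, SE 0.18), Zfp36 (-3.59, SE 0.26) and Nr4a1 (-2.64, SE 0.47). Of 10 cell-cycle genes 9 were called higher, led by Cdk1, at 163 and 178 CPM in tumour cells, 72.0 and 57.5 in the basophil gate, 30.4 and 29.7 in macrophages or microglia, 6.98 and 14.6 in T cells and 0 in monocytes. Of 8 hypoxia and glycolysis genes 5 were called higher, led by Ankrd37 (1.84, SE 0.21), which passed the filter only through the tumour sums, and of 5 heat-shock genes 2, Hsph1 (2.18, SE 0.24) and Hspb1, at 279 and 258 CPM in tumour cells, 55.7 and 80.5 in the basophil gate, at most 5.09 in monocytes, macrophages or microglia and 0 in T cells. Of 4 MHC class II genes Cd74 (-4.23, SE 0.47) and H2-Ab1 (-4.18, SE 0.73) were called lower by edgeR, and DESeq2 called all 4 lower. The edgeR SE was 4779 for H2-Aa and 2.82 for H2-Eb1. Their log2 differences from the host mean were -3.66 and -3.54 for H2-Aa and -3.04 and -4.69 for H2-Eb1. The part of the genes of these lists in the member folds was not tested.

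Over single tumour cells the members varied together. Levels per cell, as log2 of counts per 10000 plus 1, were corrected for log10 UMIs and mitochondrial share, and Pearson's r was taken over the cells of each library. Cells of a library share their source, so r is given as a description without a p. Of the members, 32 reached 20 CPM in tumour cells of both libraries, which leaves out Atf3 and Cbs and gives 496 pairs. At r of at least 0.2 in both libraries stood 421 pairs, or 84.9%, against 0.648% of all 14068860 pairs of genes at that level. The median r was 0.321 in replicate 1 and 0.349 in replicate 2, beside 0.0215 and 0.0275 over all pairs. The pairs kept their order between libraries, with r of 0.937 across the 496 pairs.

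**Figure D3:**
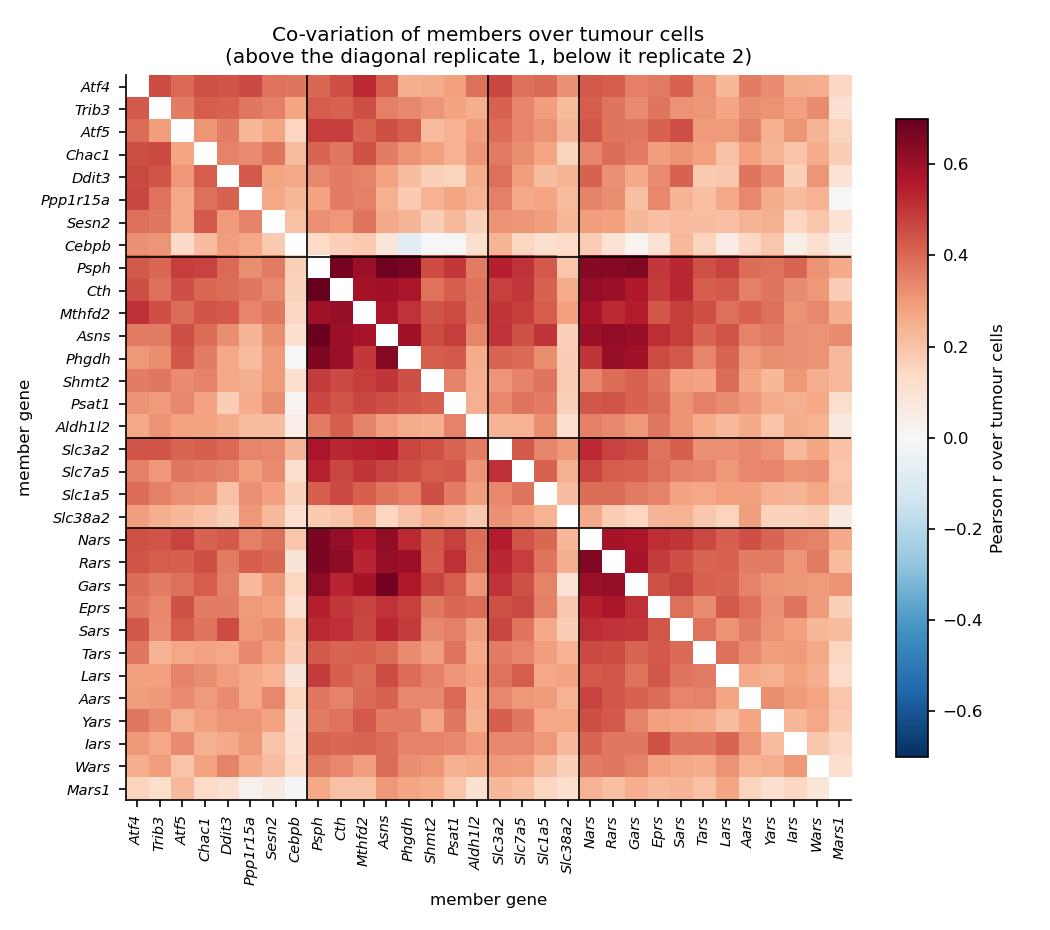
Pearson r between members over tumour cells after correction for depth and mitochondrial share, with replicate 1 above the diagonal and replicate 2 below it, genes ordered by role. The darkest block joins Psph, Cth, Mthfd2, Asns and Phgdh with Nars, Rars and Gars, and the palest rows are Cebpb, Slc38a2 and Mars1.

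The closest pairs joined serine, cysteine and asparagine synthesis. Cth and Psph reached r of 0.669 and 0.706, and Psph and Asns 0.680 and 0.694. Within the synthesis enzymes all 28 pairs passed 0.2, with a median r of 0.456 and 0.467. Enzymes and transporters had 26 of 32 pairs at 0.2 and a median of 0.367 and 0.418, and enzymes and synthetases 93 of 96 pairs at 0.2 and a median of 0.370 and 0.392, more than the regulators with the synthetases, at 70 of 96 pairs and 0.270 and 0.2999. The regulators include genes of low level, such as Sesn2 and Chac1, and the part of level in that difference was not tested. Psph and Nars correlated at 0.640 and 0.659, Psph and Rars at 0.638 and 0.659, and Asns and Gars at 0.612 and 0.673. The mean level of the synthesis enzymes followed that of the synthetases with r of 0.844 and 0.854, and that of the regulators with 0.612 and 0.651.

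Single members differed in how closely they followed the rest. The mean r to the other members was highest for Psph, 0.452 and 0.465, followed by Nars (0.434 and 0.457), Cth (0.429 and 0.442), Mthfd2 (0.433 and 0.435), Rars (0.412 and 0.453) and Asns (0.425 and 0.436). Slc3a2, which was not called against the host mean, followed the others at 0.374 and 0.416 and passed 0.2 with 31 partners. Atf4 RNA followed them at 0.367 and 0.371. Least tied were Cebpb (0.140 and 0.150, 6 partners at 0.2), Mars1 (0.169 and 0.179, 10 partners) and Slc38a2 (0.205 and 0.220, 12 partners). Ppp1r15a, not called against the host mean, stood at 0.278 and 0.303. Low counts weaken r, so genes of low level such as Sesn2 and Aldh1l2 cannot be ranked against abundant ones.

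The spread between tumour cells was wide. Cells were ordered by the summed corrected level of the other members and cut into quintiles of 216 cells in replicate 1 and 180 or 181 in replicate 2. From the lowest to the highest quintile Chac1 went from 4.91 to 65.0 CPM in replicate 1 and from 8.76 to 71.5 in replicate 2, a ratio of 13.2 and 8.16. Cth went from 34.2 to 445 and from 43.6 to 427 CPM, a ratio of 13.03 and 9.79. Asns went from 166 to 515 and from 169 to 561 CPM, so its lowest quintile lay above its sums in all host gates. The ratios were 3.24 and 2.65 for Atf4, 4.73 and 4.52 for Ddit3, 3.47 and 3.66 for Rars, and 1.38 and 1.399 for Cebpb, the smallest. All 32 members were higher in the highest than in the lowest quintile in both libraries. The share of all genes that rose in this way was not counted. The count of members restates that the mean r of each to the others was positive. Psph, which with Cth formed the closest pair, went from 98.3 to 499 CPM in replicate 1 and from 112 to 510.2 in replicate 2.

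**Figure D4:**
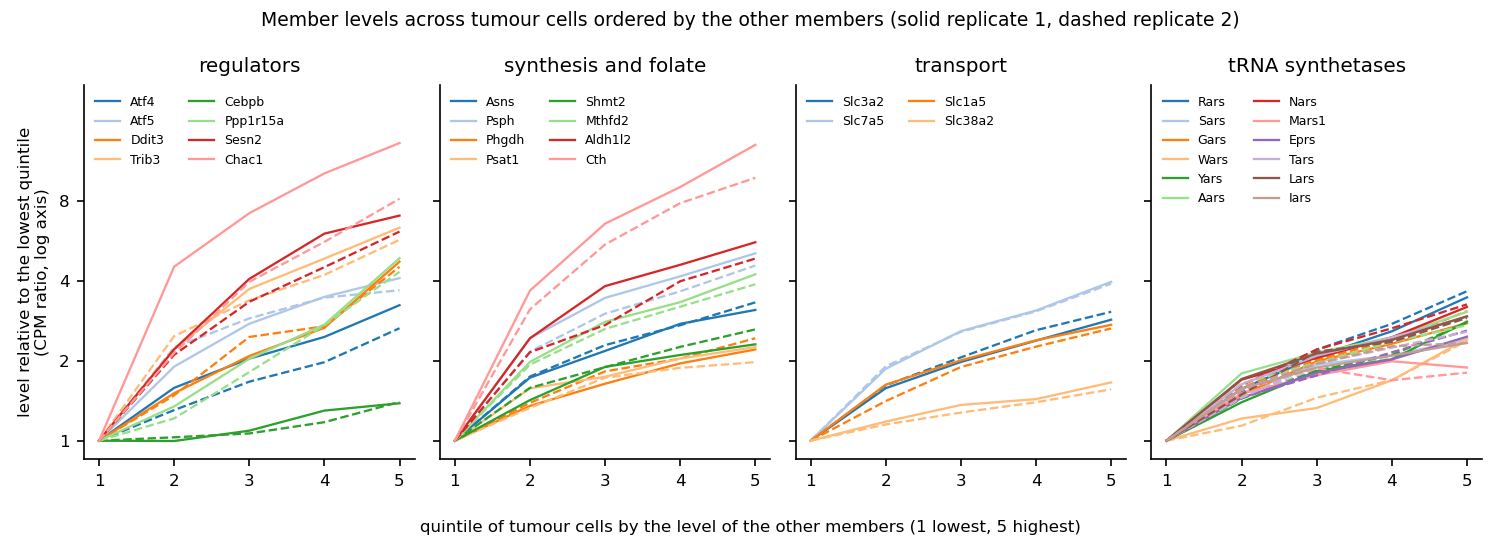
Level of each member in quintiles of the tumour cells, ordered by the other members and divided by its level in the lowest quintile (log axis), with replicate 1 solid and replicate 2 dashed. Chac1 and Cth climb most, the 12 synthetases stay between 1.80-fold and 3.66-fold at the highest quintile, and Cebpb ends at 1.38-fold and 1.399-fold.

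With all members used for the order, which fixes the direction of their sum, the summed member level ran from 3124 to 9508 CPM and from 3323 to 9794 CPM. The order used levels corrected for log10 UMIs, so a similar depth across quintiles was set by that correction. The median UMI count was 39882 in the lowest and 39236 in the highest quintile of replicate 1, and 42511 and 44754 in replicate 2. The middle quintiles lay between 41088 and 52789. The glioma marker Nes went from 113 to 112 CPM and from 108 to 121 CPM. Ptprc stayed at 1.28 CPM or less in all quintiles. Before correction the members' mean level did rise with log10 UMIs, with r of 0.316 and 0.368. When cells were thinned to 20000 UMIs each, 316 of 528 pairs, or 59.8%, stood at 0.2 in both libraries, against 0.169% of all pairs.

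Of the 10 genes outside the set that followed it most closely, 1, Eif4ebp1, was in the list of ATF4 targets. That list names 22 chosen genes, so absence from it does not show that a gene is no ATF4 target. Slc7a1, also in that list, stood at rank 13 in replicate 1 and at rank 7 in replicate 2. The 10 with the highest mean r to the members in replicate 1 were Cyb5r1 (0.415, and 0.427 in replicate 2), Eif4ebp1 (0.379 and 0.393), Herpud1 (0.360 and 0.364), Steap1 (0.360 and 0.384), Phf10 (0.359 and 0.400), Eif2s2 (0.359 and 0.370), Hspa9 (0.352 and 0.406), Uqcrq (0.348 and 0.382), Esf1 (0.347 and 0.369) and Rheb (0.343 and 0.378). Of these, 7 were also among the 10 highest in replicate 2, and the lowest stood at rank 15 of 5273. The median over all 5273 genes was 0.0427 and 0.0543. Eif4ebp1 encodes a brake on cap-dependent translation, Rheb an activator of mTORC1, Hspa9 the mitochondrial chaperone mortalin and Herpud1 a protein of endoplasmic reticulum degradation.

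Over tumour cells the lists followed the members to different degrees, and not in the order of their folds against host cells. The mean level of the 16 other ATF4 targets at that level correlated with the members' mean level at 0.779 and 0.803, and the 8 other cytosolic synthetases at 0.477 and 0.468. Single genes of both lists were split. Among the targets, mean r ran from Eif4ebp1 (0.379 and 0.393) down to Hmox1 (0.008 and -0.026) and Ddit4 (-0.001 and 0.027). Among these synthetases it ran from Farsb (0.288 and 0.302) to Kars (-0.063 and -0.026). The lists differ in gene number and level, whose part in r was not tested. The 11 genes at that level for eIF2, eIF2B and their kinase and phosphatase regulators stood at 0.480 and 0.523, and the 7 other serine and folate genes at 0.287 and 0.339. Eif2ak2, the only kinase gene among the 11, had a mean r of -0.0195 and -0.0575. The 15 genes of the ATF6 and XBP1 arms reached 0.197 and 0.180, and within that list Herpud1 (mean r 0.360 and 0.364) and Atf6 (0.233 and 0.233) stood apart from Calr (-0.062 and -0.054) and Hsp90b1 (-0.059 and -0.069). Mitochondrial synthetases stood at 0.011 and 0.085, cell-cycle genes, mostly higher than in host cells, at -0.016 and 0.021, and hypoxia and glycolysis genes at -0.105 and -0.114. Dissociation genes, mostly lower than in host cells, stood at 0.212 and 0.252, in which Ier2 led with a mean r of 0.249 and 0.265.

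**Figure D5:**
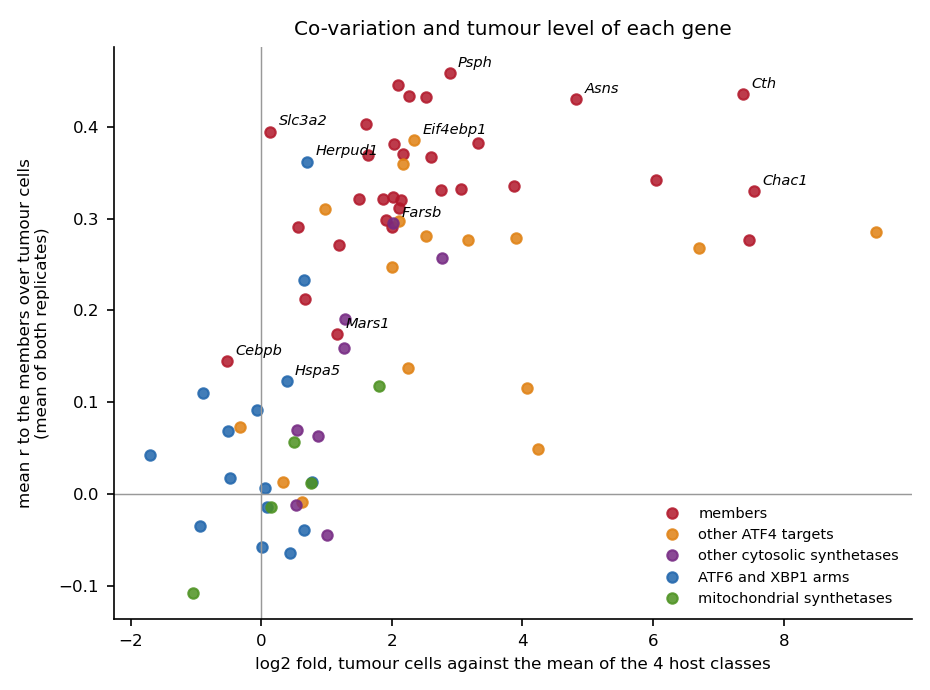
Log2 fold of tumour cells against the host mean (horizontal) and mean r to the members over tumour cells, averaged over both libraries (vertical), with 1 point per gene. Slc3a2 and Herpud1 follow the members closely at log2 folds of 0.14 and 0.71. The other genes of the ATF6 and XBP1 arms spread from -1.70 (Edem1) to 0.78 (Pdia6) on the horizontal axis.

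Some genes went against the members. The heat-shock genes at that level had r of -0.336 and -0.359 with the members' mean, led by Hspb1, the small heat-shock protein, with a mean r of -0.249 and -0.257. Hspb1 went from 484 CPM in the lowest quintile to 72.3 in the highest in replicate 1 and from 534 to 84.7 in replicate 2. Vim, the intermediate filament vimentin, went from 4270 to 1728 and from 4029 to 1753 CPM, with a mean r of -0.304 and -0.303. The lowest mean r of all belonged to the ribosomal gene Rpl37a, -0.312 and -0.322, and the next lowest to Vim and to Uqcrh (-0.299 and -0.316), a subunit of respiratory complex III. CPM are shares of a cell's total, and the part of that scaling in these opposite trends was not tested.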

How the data were processed

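Per the labels, the authors processed the reads with Cell Ranger 3.1, which aligned them to mm10 with STAR and gave the deposited raw UMI counts per gene and barcode; the annotation is not given in the sources used here. The labels describe a final step that scales runs to a common depth, but the library totals of 63001350 and 58915133 UMIs differ, so the counts were used as deposited. The genes, gene lists, gates and tests were chosen with earlier results of these data known. Host cells meeting more than 1 host gate (40) were left out.

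Counts were summed per class and library (5 classes, 2 libraries) and fitted with edgeR 4.0.16 in R 4.3.3 (TMM, filterByExpr with a limit of 23.1 CPM, library as block, 4 residual degrees of freedom). Benjamini-Hochberg adjustment ran over all genes tested. SE is the log2 fold over the root of F. Same-numbered sums come from 1 library, which is the pairing. The p-values measure only how class differences vary between the libraries, and the libraries' tumour sums differed beyond sampling noise (chi-square per degree of freedom 6.87). A fitted fold of a gene with a class at 0 counts depends on the prior count, so bounds at 3 counts per class are given, which cover counting error only. Doublets were called with scrublet (scanpy 1.11.5; 14 cells) and left out in an alternative.

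Named genes were, in each role, the members with the largest and smallest fold and those with the highest mean r, up to 4 called genes of each list with the largest fold, the 10 non-members with the highest mean r in replicate 1, and 6 promoters. Others, such as Ppp1r15a, Hspa5 and Herpud1, were chosen after their values were seen, and 1 gene that the rule names is not reported here. Scripts were tested on simulated data. Alternatives were RLE factors, DESeq2 1.42.0, no filter, no block, and other gates, cell filters and correlation measures.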

Additional observations from a re-analysis of the deposited data

How the results depend on the processing

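Of the counts and medians recomputed under the alternatives, 245 stayed within 1.5 times or 1 SD of the value reported and 17 did not. Against the host mean, where RLE factors and DESeq2 moved the median of all genes from 0.18 to 0.07 and 0.03, 27 or 28 members were called higher under all alternatives run, and 1 lower (Atf3) when host cells of 2 gates were kept. Against basophils, the members called lower became 1 without the filter and 4 with the gate of 5 Mcpt8 UMIs. Without the filter the genes called higher rose to 4089 against the host mean, 3878 (3107 lower) against macrophages or microglia, 3025 against monocytes, 2105 against basophils and 2546 against T cells, since more genes were tested. Genes higher than in basophils were 699 with DESeq2, 696 with stricter cell filters, 714 with Nras at 2000 CPM and 1835 with 5 Mcpt8 UMIs; members higher than in basophils were 16 under the cell filters and Nras 2000 settings, beside 24. The fit without the replicate block called 27 members higher and 0 lower, and the block changed no call count by over 1.5 times.

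The median r over members, 0.335 as the mean of both libraries, was 0.358 without correction, 0.366 by Spearman, 0.241 after thinning to 20000 UMIs and 0.366 in cells with 10000 UMIs or more; without replicate 1 or 2 it ran from 0.321 to 0.349. The log2 fold of Atf3 was 0.0719 without the filter and 0.12 with Nras at 2000 CPM, against -0.08, and that of Slc3a2 -0.11 with host cells of 2 gates and -0.0253 with 5 Mcpt8 UMIs, against 0.14; none of these was called, and the cause was not tested. Single libraries had no test. Without replicate 2 the log2 difference was 4.71 for Atf5, 4.33 for Trib3, 6.46 for Asns and 3.49 for Slc7a5, and without replicate 1 it was 3.80, 6.48, 4.36 and 2.55; Chac1, Aldh1l2 and Cth, with classes at 0, lay between 5.21 and 7.33. Of members not called, Atf3 went from -0.68 in replicate 1 to 1.33 in replicate 2, Ppp1r15a from 0.39 to 0.78 and Slc3a2 from -0.0065 to 0.29. The T cell and monocyte sums, of 28 to 38 cells, limit the low members most.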
